A study of Sus scrofa with 44 samples.

Results

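The comparison of fetal pig muscle at 60 days post coitus (E60) with muscle at 50 days (E50) rests on 6 of the 44 samples of the series, the 3 input libraries of each stage, and on 1 list of m6A peaks per stage. Its members are the 12967 genes, of 22427 in the expression files, whose level averaged at least 1 TPM over both stages. TPM is a share of the transcripts of a library, corrected for gene length. Of these genes 10499 have a symbol. All 6 libraries were made from rRNA-depleted RNA of the longissimus dorsi, the long muscle of the back, and sequenced as the untreated input of MeRIP-seq. This is an assay in which RNA fragments carrying N6-methyladenosine (m6A) are pulled down with an antibody and compared with that input. The series was designed to follow m6A through muscle formation before birth, at E33, E40, E50, E60, E70 and E95, with no treatment or genotype between the groups. Breed, sex, litter and any pooling of fetuses are not given in the sources used here. The p-values therefore rest on the spread between 3 samples within a stage, pooled over all stages, which may be partly technical. The tissue is a mixture of cells, and in such bulk samples fewer cells of a type and less RNA per cell cannot be told apart.

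Skeletal muscle of the fetus forms in overlapping waves. Myoblasts leave the cell cycle under the control of factors such as MYOD1, MYOG and the MEF2 and TEAD families, fuse into primary fibres. Later they form secondary fibres along them, while myofibrils, the sarcoplasmic reticulum and the neuromuscular junction are assembled. m6A is written on RNA by the METTL3 and METTL14 complex, removed by FTO and ALKBH5, and bound by YTH proteins and the IGF2BP family. It is known to lie mostly in the coding sequence, around the stop codon and in the 3' UTR, within a sequence whose core is an adenosine preceded by guanosines and followed by a cytidine.

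The files hold TPM and no counts, so the depth behind each level is unknown. A single gene without a symbol, ENSSSCG00000032395, took up 51.0% to 72.4% of all TPM in the 6 libraries. Another, ENSSSCG00000032599, took up 14.4% in E50 replicate 3 against 0.227% to 0.975% in the other 5. E50 replicate 3 listed 8691 genes at 1 TPM or more, against 12418 to 13020 in the other 5. Libraries were therefore scaled by the median ratio over genes, with factors of 0.301 for E50 replicate 3 and 0.954 to 1.31 for the others, and levels below are scaled TPM. Scaling brought the log2 change of the median gene from 0.63 to 0.00, so changes are relative to the typical gene. The 13 markers of muscle fibres and myoblasts that were matched summed to 9908 to 14728 scaled TPM at E50 and 11183 to 16445 at E60, and limma called 0 of them, with 3 at an unadjusted p under 0.05, all higher. Among all 12967 genes tested, 1572 had an unadjusted p under 0.05, and such counts are to be read beside that share.

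In limma's moderated test, fitted to all 18 muscle input libraries, 108 of the 12967 genes (0.833%) differed at a Benjamini-Hochberg adjusted p under 0.05, with 73 higher at E60 (0.563%) and 35 lower (0.270%). Among the genes that rose were the calcium pump ATP2A1, the sodium channel SCN4A, the myofibril scaffold NRAP, the elongation factor EEF1A2 and the enzymes PFKM and GYS1, and also the regulators KLF5, TGFB1 and NR4A1. Among the genes that fell were MUSK, the receptor of the neuromuscular junction, the matrix genes LUM and LAMA4, and PENK, TACR1 and LGI1, which are best known from neurons. Others best known from neurons, such as GRIN2D and ATCAY, rose. Changes are differences of mean log2(scaled TPM + 1), a scale that understates the change of low genes. The called genes that rose had a median log2 change of 0.89, those that fell one of -0.71, and the median over all genes tested was 0.00. In all 108 the libraries of E60 lay outside the range of those of E50, which was also so for 1017 genes (7.84%) higher and 950 (7.33%) lower among all those tested. The number of calls rests on the spread borrowed from the other stages: with only the 6 libraries of E50 and E60 in the fit 11 genes were called, 5 of them among the 108. All 108 still kept their direction and an unadjusted p under 0.05. They were chosen for the difference between these same libraries, so this is largely set by that choice. Without E50 replicate 3 the count was 75 (47 higher, 28 lower), of which 59 were among the 108. Without E50 replicate 2 it was 68, and without E60 replicate 1, 2 or 3 it was 67, 52 or 64.

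**Figure D1:**
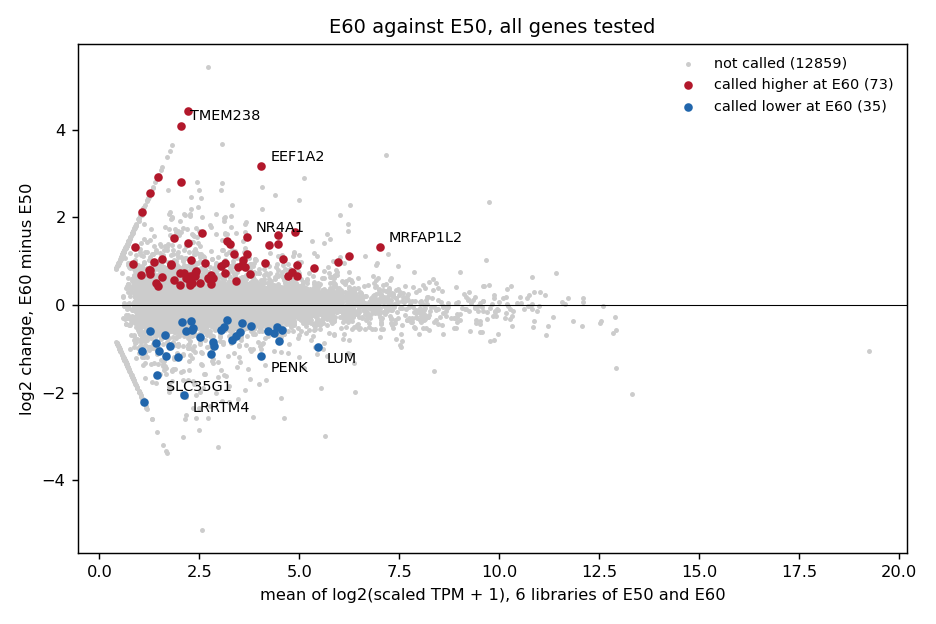
Log2 change from E50 to E60 (vertical axis) against the mean log2(scaled TPM + 1) of the 6 libraries (horizontal axis) for the 12967 genes tested, with the 73 genes called higher in red, the 35 called lower in blue and the 12859 others in grey. Called genes lie at low and middle levels, and the slanted edges at the left are genes listed at 0 in every library of a stage.

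Among genes of the contractile apparatus, NRAP rose. Of the 18 genes tested for the Z-disc, titin and the costamere, 1 rose and 0 fell. Their median log2 change was 0.33, against 0.00 for all genes. In 11 of them all E60 libraries lay above those of E50, as in 7.84% of all genes tested. NRAP, a nebulin-related scaffold of growing myofibrils (ENSSSCG00000010640, RefSeq chr14:123928562-124018462, minus strand), stood at 8.31, 6.38 and 8.09 scaled TPM in the E50 libraries and at 18.7, 20.9 and 15.5 in those of E60. Every E60 library was thus above every E50 library, and the difference was 1.17 in log2 (SE 0.14, limma adjusted p 0.00195). The members TCAP, which caps titin at the Z-disc, and ACTN3, the alpha-actinin of fast fibres, were not called. TCAP was at 215, 180 and 151 at E50 and at 290, 410 and 233 at E60 (limma adjusted p 0.213). ACTN3 was at 0.206 to 1.70 and at 1.76 to 4.82 (limma adjusted p 0.11).

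Excitation-contraction coupling carries the action potential of the fibre membrane to calcium release inside the fibre. Of its 18 genes tested 2 rose and 0 fell, with a median change of 0.30. ATP2A1, the calcium pump SERCA1 of fast fibres (ENSSSCG00000007805, RefSeq chr3:18545064-18568312, plus strand), was at 20.7, 18.1 and 25.8 scaled TPM at E50 and at 34.2, 44.5 and 44.6 at E60, a difference of 0.91 in log2 (SE 0.14, limma adjusted p 0.00708). SCN4A, the voltage-gated sodium channel of muscle (ENSSSCG00000017282, RefSeq chr12:15001356-15048092, plus strand), was at 8.64, 5.45 and 7.76 and then at 13.8, 11.6 and 16.4, a difference of 0.86 in log2 (SE 0.17, limma adjusted p 0.0265). The E60 libraries of both genes were all above those of E50. The calcium channel CACNA1S, at 11.6 to 14.6 at E50 and 16.7 to 24.0 at E60, and calsequestrin CASQ1, at 14.2 to 19.1 and 21.5 to 36.8, had separate ranges too but were not called (limma adjusted p 0.0782 and 0.178). The call of SCN4A was lost without E50 replicate 2 or 3 and without E60 replicate 1 or 3, with a limma adjusted p of at most 0.118 and a log2 change of 0.69 to 0.98 over the libraries left out in turn. ATP2A1 and NRAP were called without any single library.

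No gene of the filaments themselves was called. In limma's test 0 of 18 thick filament and M-band genes and 0 of 15 thin filament genes passed, with 3 of each at an unadjusted p under 0.05, all higher, and median changes of 0.13 and 0.24. Over all genes tested 1572 of 12967 were under that unadjusted p. Skeletal actin ACTA1 was at 1551, 1148 and 1716 scaled TPM at E50 and at 1610, 3037 and 2372 at E60, ranges that overlap (limma adjusted p 0.30). Tropomyosin TPM1 was at 119 to 136 and at 149 to 232, and the myosin-binding protein MYBPH at 40.0 to 48.3 and 67.2 to 98.9, with separate ranges and limma adjusted p of 0.143 and 0.156.

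EEF1A2, the form of the translation elongation factor eEF1A that adult muscle and neurons use (ENSSSCG00000040401, RefSeq chr17:62517811-62526379, minus strand), had the largest log2 change of any gene with a symbol and a level above 0 at both stages. Its scaled TPM was 4.45, 4.11 and 5.05 at E50 and 43.6, 67.6 and 39.1 at E60, with a difference of 3.17 in log2 (SE 0.28, limma adjusted p 0.000253). The ranges lie far apart, and the gene was called without any single library, with values as deposited and with only the 6 libraries in the fit (limma adjusted p 0.0150). How reads shared with its near-identical paralog EEF1A1 were assigned is not given in the sources used here. CMYA5, or myospryn, a protein of the costamere that binds desmin (ENSSSCG00000026098, RefSeq chr2:88391104-88506336, plus strand), was at 1.55, 1.07 and 3.39 at E50 and at 5.11, 7.48 and 7.40 at E60, a difference of 1.41 in log2 (SE 0.23, limma adjusted p 0.00953). Its call was lost without E60 replicate 2 (limma adjusted p 0.0542).

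Among 24 genes of creatine kinase, glycolysis and glycogen 2 rose, 0 fell and 22 were not called, with a median change of 0.10. PFKM, the phosphofructokinase of muscle (ENSSSCG00000021129, RefSeq chr5:78475473-78525052, plus strand), was at 4.60, 3.70 and 4.68 scaled TPM at E50 and at 6.34, 7.33 and 7.94 at E60, a difference of 0.62 in log2 (SE 0.10, limma adjusted p 0.00759). GYS1, the glycogen synthase of muscle (ENSSSCG00000003154, RefSeq chr6:54234600-54250211, minus strand), was at 24.1, 23.3 and 22.2 and at 32.9, 37.7 and 42.1, a difference of 0.67 in log2 (SE 0.11, limma adjusted p 0.0109), which reached 0.0514 without E60 replicate 2 or 3 left out in turn. Aldolase ALDOA, at 28.0 to 49.1 and 48.2 to 90.2, and muscle creatine kinase CKM, at 206 to 287 and 287 to 429, were not called (limma adjusted p 0.296 and 0.284). AGPAT2, an enzyme of phosphatidic acid synthesis, was at 4.02, 1.39 and 2.15 at E50 and at 8.06, 10.01 and 10.5 at E60, a difference of 1.64 in log2 (SE 0.28, limma adjusted p 0.0117, at most 0.0561 without single libraries and lost without E50 replicate 2, E60 replicate 2 or E60 replicate 3). Of 27 genes of oxidative phosphorylation and oxygen supply limma called 0, with 3 at an unadjusted p under 0.05 (1 higher, 2 lower) and a median of -0.05. Its members with the largest changes pointed opposite ways: cytochrome c, CYCS, was at 14.7 to 27.0 at E50 and 7.198 to 9.46 at E60, and the muscle form of a cytochrome oxidase subunit, COX7A1, at 2.01 to 7.01 and 8.66 to 16.8 (limma adjusted p 0.0921 and 0.193).

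**Figure D2:**
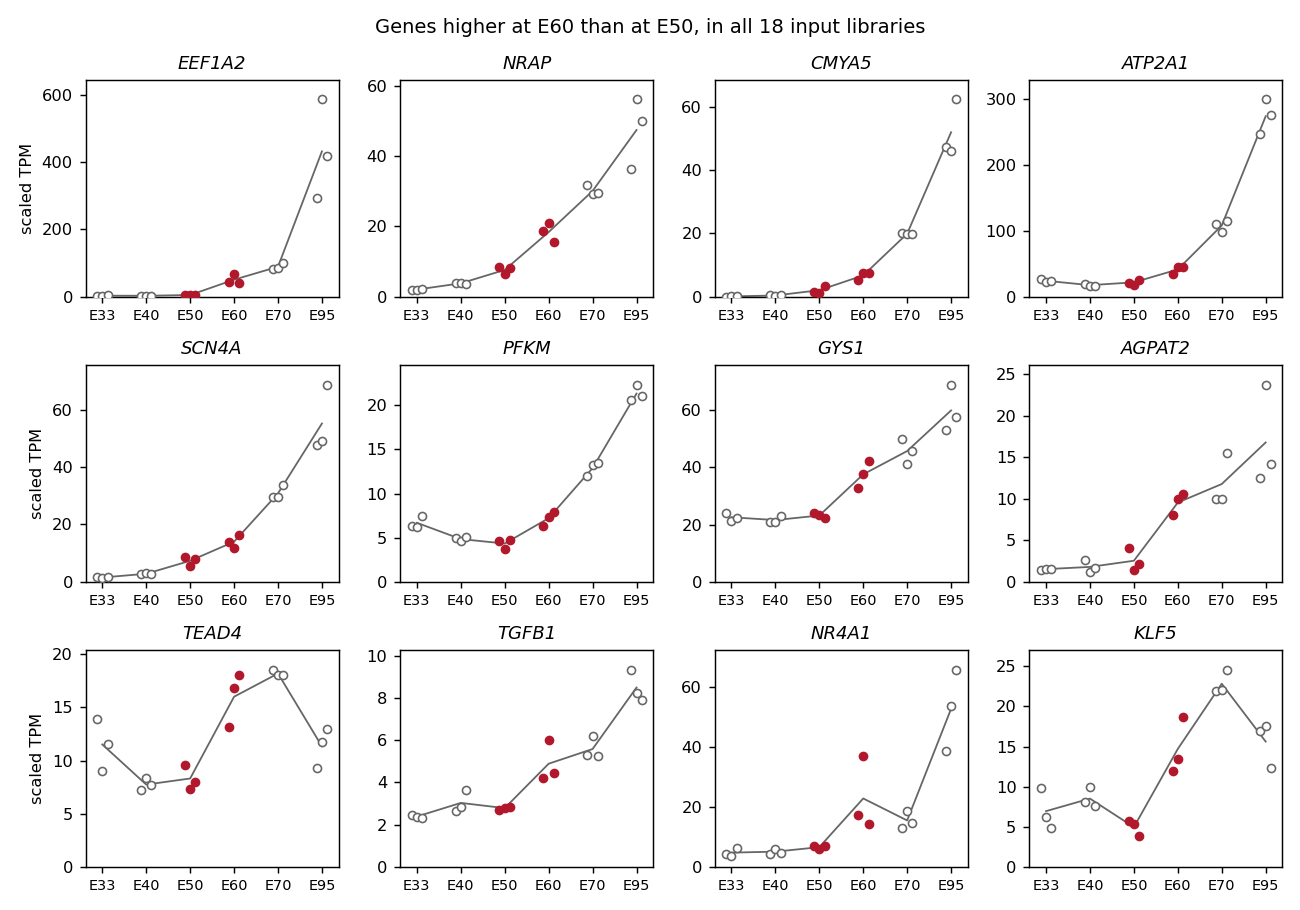
Scaled TPM (vertical axis, from 0) of 12 genes called higher at E60 in each of the 18 input libraries by stage, with E50 and E60 filled, the other stages open, and a line through the stage means. All E60 points lie above all E50 points in each panel; TEAD4 and KLF5 were highest at E70, and the other 10 at E95.

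Single regulators of transcription and signalling rose. Of 25 myogenic transcription factors 5 had separate, higher ranges at E60, against 7.84% of all genes tested, and the list median was 0.17. Of the 25 factors 1 was called higher and 0 lower. It was TEAD4, which binds with YAP and TAZ and with myogenic factors at muscle genes (ENSSSCG00000000736, RefSeq chr5:67130392-67167579, minus strand), at 9.63, 7.29 and 8.02 scaled TPM at E50 and 13.1, 16.8 and 18.1 at E60, a difference of 0.87 in log2 (SE 0.16, limma adjusted p 0.0164). MYOG, which drives myoblasts into differentiation, was at 110, 91.3 and 97.5 and then at 117, 159 and 193, above E50 in all 3 libraries but not called (limma adjusted p 0.0843). The repressor BHLHE40 was at 7.48 to 11.3 and 17.6 to 22.3 (limma adjusted p 0.0745). The call of TEAD4 was lost without E50 replicate 2 or 3 and without E60 replicate 2 or 3, with a limma adjusted p of at most 0.0795.

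KLF5, a zinc-finger factor (ENSSSCG00000035101, RefSeq chr11:45370009-45386673, plus strand), was at 5.74, 5.31 and 3.79 at E50 and 11.96, 13.5 and 18.7 at E60, a difference of 1.39 in log2 (SE 0.22, limma adjusted p 0.00759), and was called without any single library. HEY2, a repressor induced by Notch (ENSSSCG00000004223), was the 1 gene called among 31 of Notch and Wnt signalling. It was at 0.501 and 0.104 with a value listed at 0 in the E50 libraries and at 2.32, 1.77 and 1.78 at E60 (log2 change 1.31, SE 0.22, limma adjusted p 0.00926); the median of the list was -0.01. The Wnt inhibitors SFRP4, at 17.6 to 21.2 and 7.65 to 13.6, and SFRP1, at 2.50 to 3.57 and 1.18 to 1.74, had lower, separate ranges and were not called (limma adjusted p 0.335 and 0.0970). Among 28 genes of insulin-like and other growth signals 1 rose, 0 fell, and the median was -0.01. It was TGFB1, a growth factor that restrains myoblast fusion (ENSSSCG00000003017), at 2.69, 2.81 and 2.86 and then at 4.203, 6.03 and 4.42 (log2 change 0.63, SE 0.12, limma adjusted p 0.0195). IRS2, an adaptor of the insulin receptor, at 5.40 to 7.85 and 10.3 to 18.4, and IGFBP5, which binds insulin-like growth factors, at 250 to 317 and 186 to 203, had separate ranges in opposite directions and were not called (limma adjusted p 0.0633 and 0.0600). The call of TGFB1 was lost without any 1 of the E50 libraries and without E60 replicate 2 (limma adjusted p at most 0.0795). TNFRSF12A, the receptor of the cytokine TWEAK, was at 18.2, 10.8 and 10.5 and then at 34.4, 44.2 and 28.3 (log2 change 1.39, SE 0.29, limma adjusted p 0.0404). Its call was lost in 5 of the 6 fits that left out 1 library, with an adjusted p of at most 0.17, and remained without E50 replicate 1.

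Immediate early and stress genes had the highest median of the 16 lists, 0.46. Of the 25 tested 2 were called higher, 0 lower and 12 had separate, higher ranges, against 7.84% of all genes tested. NR4A1, an orphan nuclear receptor (ENSSSCG00000031321), was at 6.85, 5.86 and 6.95 scaled TPM at E50 and at 17.4, 36.9 and 14.1 at E60, a difference of 1.54 in log2 (SE 0.29, limma adjusted p 0.0207). The zinc-finger factor EGR1 (ENSSSCG00000014336) was at 3.91, 4.42 and 5.0004 and then at 7.34, 10.3 and 6.02, a difference of 0.68 in log2 (SE 0.14, limma adjusted p 0.0395). E60 replicate 2 was the highest library for both, and for FOS, which was at 24.4, 15.7 and 31.6 at E50 and at 53.0, 90.1 and 56.8 at E60 and was not called (limma adjusted p 0.0749). Without E60 replicate 2, E50 replicate 2 or E50 replicate 3 the list had 0 calls in limma, as it had with values as deposited and with only the 6 libraries in the fit. The call of NR4A1 was also lost without E50 replicate 1, and that of EGR1 without E50 replicate 1 or E60 replicate 1. The limma adjusted p reached 0.0791 for NR4A1 and 0.122 for EGR1. In all 19 alternatives the median of the list stayed above that of all genes, by 0.27 to 0.58. The alternatives reuse these libraries, and the lists were chosen with earlier results of these data known. This persistence is therefore not independent evidence. Whether handling of the tissue moved with the stage is not recorded in the sources used here, and its part in these levels was not tested.

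For 6 of the 108 genes every library of the lower stage is listed at exactly 0, and such a 0 can be a failed estimate, since genes in common use, among them JUNB in 5 of the 6 libraries, are also listed at 0. PNPLA2, the main lipase of stored triglyceride (ENSSSCG00000012841, RefSeq chr2:513065-517962, plus strand), was listed at 0 in the 3 E50 libraries and at 3.95, 8.70 and 8.06 scaled TPM at E60 (limma adjusted p 0.00183). E40 replicates 1 and 2 list it at 0 too, while its mean at E33 was 4.01 ± 1.19 (SD, n = 3). PHF1, a partner of the polycomb repressive complex (ENSSSCG00000001511), was listed at 0 in all 9 libraries of E33 to E50 and at 2.25, 3.45 and 4.82 at E60 (limma adjusted p 0.00792). HPDL, an enzyme of mitochondria (ENSSSCG00000003920), was likewise listed at 0 in those 9 libraries, at 3.97, 4.62 and 6.22 at E60, and again at 0 in E70 replicates 2 and 3 (limma adjusted p 0.0418). The call of HPDL was lost when any 1 of the 6 libraries was left out (limma adjusted p at most 0.145), and also with the replicate block, with library weights and with no filter. TMEM238 was listed at 0 in the 3 E50 libraries only: it was at 14.6, 22.8 and 12.3 at E60, and at 17.2 ± 3.06 already at E33 and 17.9 ± 10.7 at E40 (SD, n = 3 each). The gene ENSSSCG00000036599 is listed at 0 in all E50 libraries and ENSSSCG00000000318 in all those of E60. No fold change is given for these genes.

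The genes lower at E60 included few members of the lists. Of 9 genes of the neuromuscular junction 1 fell, 0 rose, and the median was -0.12. MUSK, the receptor kinase that clusters acetylcholine receptors under the nerve ending (ENSSSCG00000005456, RefSeq chr1:251650151-251758538, plus strand), was at 12.1, 13.5 and 12.4 scaled TPM at E50 and at 7.31, 7.40 and 7.31 at E60, a difference of -0.71 in log2 (SE 0.14, limma adjusted p 0.0278). The receptor subunit CHRNA1 was at 52.7, 57.5 and 49.7 and then at 35.8, 41.05 and 37.9, and acetylcholinesterase ACHE, which ends the signal, at 3.96 to 6.96 and 9.62 to 11.2. Their ranges were separate in opposite directions, and neither was called (limma adjusted p 0.0890 and 0.156). The call of MUSK was lost when any 1 of the 6 libraries was left out, with a limma adjusted p of at most 0.0996 and a log2 change of -0.74 to -0.67, and with values as deposited its change was 0.01.

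Of 34 genes of collagens and extracellular matrix 2 fell and 0 rose, while the median was 0.16. LUM, or lumican, a proteoglycan of collagen fibrils (ENSSSCG00000000916, RefSeq chr5:91748871-91756381, plus strand), was at 59.2, 71.7 and 52.4 scaled TPM at E50 and at 31.3, 31.8 and 28.7 at E60, a difference of -0.96 in log2 (SE 0.18, limma adjusted p 0.0172). LAMA4, the laminin chain of the basement membranes of vessels and fat (ENSSSCG00000004425, RefSeq chr1:78071990-78224564, minus strand), was at 24.5, 26.5 and 23.8 and then at 16.5, 18.2 and 17.1, a difference of -0.51 in log2 (SE 0.08, limma adjusted p 0.00783), and 0.27 with values as deposited. Both fell in all 3 libraries, whereas collagen COL1A1 was at 1865, 1975 and 2603 at E50 and at 5251, 3547 and 2321 at E60, not called (limma adjusted p 0.366). E60 replicate 1 was the highest for COL1A1 and COL11A1 and also for the summed markers of tendon and fibroblasts, 441 scaled TPM against 156 to 277 in the other 5 libraries, and of cartilage and bone, 109 against 25.6 to 67.3. The call of LUM was lost without E50 replicate 2 and without any 1 of the E60 libraries (limma adjusted p at most 0.0748). LAMA4 was called without any single library.

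The following genes that fell were put together for being best known from the nervous system, after their values were seen and with no list or test behind the grouping. PENK, the precursor of enkephalins (ENSSSCG00000006243, RefSeq chr4:75525497-75530403, plus strand), was at 22.5, 21.2 and 27.8 scaled TPM at E50 and at 7.23, 12.3 and 11.4 at E60, a difference of -1.16 in log2 (SE 0.23, limma adjusted p 0.0262). TACR1, the receptor of substance P (ENSSSCG00000036008, RefSeq chr3:67839367-68021733, plus strand), was at 3.22, 2.74 and 3.18 and then at 0.872, 0.998 and 1.0001, a difference of -1.05 in log2 (SE 0.15, limma adjusted p 0.00577). LGI1, a secreted protein of synapses, was at 3.87, 4.89 and 2.63 and then at 1.27, 1.12 and 0.943 (log2 change -1.16, SE 0.20, limma adjusted p 0.0135). LRRTM4, a synaptic adhesion protein, was at 8.09, 5.58 and 10.6 and then at 1.81, 0.208 and 1.79 (log2 change -2.06, SE 0.43, limma adjusted p 0.0369). KCNAB1, a subunit of voltage-gated potassium channels, was at 3.80, 3.95 and 3.42 and then at 1.201, 1.38 and 1.90 (log2 change -0.93, SE 0.15, limma adjusted p 0.00874). The homeobox gene DBX1 was at 32.3, 24.7 and 30.7 and then at 13.1, 16.3 and 19.1 (log2 change -0.82, SE 0.15, limma adjusted p 0.0170). Other genes best known from neurons, also named after their values were seen, were called higher. GRIN2D averaged 2.82 scaled TPM at E50 and 5.07 at E60, and ATCAY 1.08 and 3.29. GRIP2 averaged 0.886 and 2.08, and MAP1A 30.1 and 54.6. The markers of neurons were low and moved both ways, with 7 of 12 means lower at E60 and 5 higher. Of the 12 matched only NEFL averaged 1 TPM, at 15.3, 10.3 and 15.2 at E50 and 10.5, 15.3 and 5.26 at E60, and the 12 summed to 14.1 to 19.7 at E50 and 7.26 to 17.4 at E60. STMN2 was at 0.944 to 1.12 and 0.163 to 0.291, SYT1 at 0.585 to 0.908 and 0.343 to 0.409, and SNAP25 at or under 0.0593 in all 6 libraries. RBFOX3 was at 0.0707 to 0.119 and 0.132 to 0.136, and the means of INA and ISL1 were 0.151 and 0.334, and 0.0436 and 0.225. The part of nerve tissue in these falls and rises was not tested. The calls of TACR1 and KCNAB1 held without any single library, those of LRRTM4 in 0 of 6 such fits (limma adjusted p at most 0.150), and those of PENK, LGI1 and DBX1 were lost in 5, 3 and 4 of them, with an adjusted p of at most 0.10, 0.0572 and 0.0697.

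Genes of other kinds fell too. SLC35G1, a solute carrier (ENSSSCG00000027230, RefSeq chr14:105335063-105345277, plus strand), was at 3.35, 3.84 and 3.89 scaled TPM at E50 and at 0.646, 0.725 and 0.298 at E60, a difference of -1.60 in log2 (SE 0.20, limma adjusted p 0.00281). CCDC3, a secreted protein (ENSSSCG00000011110), was at 5.28, 3.95 and 5.45 and then at 1.83, 1.21 and 1.73 (log2 change -1.19, SE 0.14, limma adjusted p 0.00183). KIF24, a kinesin that acts at centrioles (ENSSSCG00000010984, RefSeq chr10:32454615-32552763, plus strand), was at 7.34, 9.45 and 9.29 and then at 4.45, 4.17 and 4.43 (log2 change -0.85, SE 0.12, limma adjusted p 0.00496). All 3 were called without any single library. KIF24 overlaps NUDT2 on the other strand, which was also called lower, and whether reads were counted by strand is not given in the sources used here. The other falls among the largest 15 were those of CTXN3, TMEM108, NKAIN4, MARCHF11 and YPEL4, with log2 changes of -1.12, -1.05, -0.94, -0.86 and -0.81 and limma adjusted p of 0.0278, 0.0106, 0.0135, 0.0121 and 0.0149. The call of TMEM108 held without any single library, while those of CTXN3, YPEL4, NKAIN4 and MARCHF11 were lost in 5, 4, 3 and 1 of the 6 such fits (at most 0.113, 0.0773, 0.0605 and 0.0648).

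**Figure D3:**
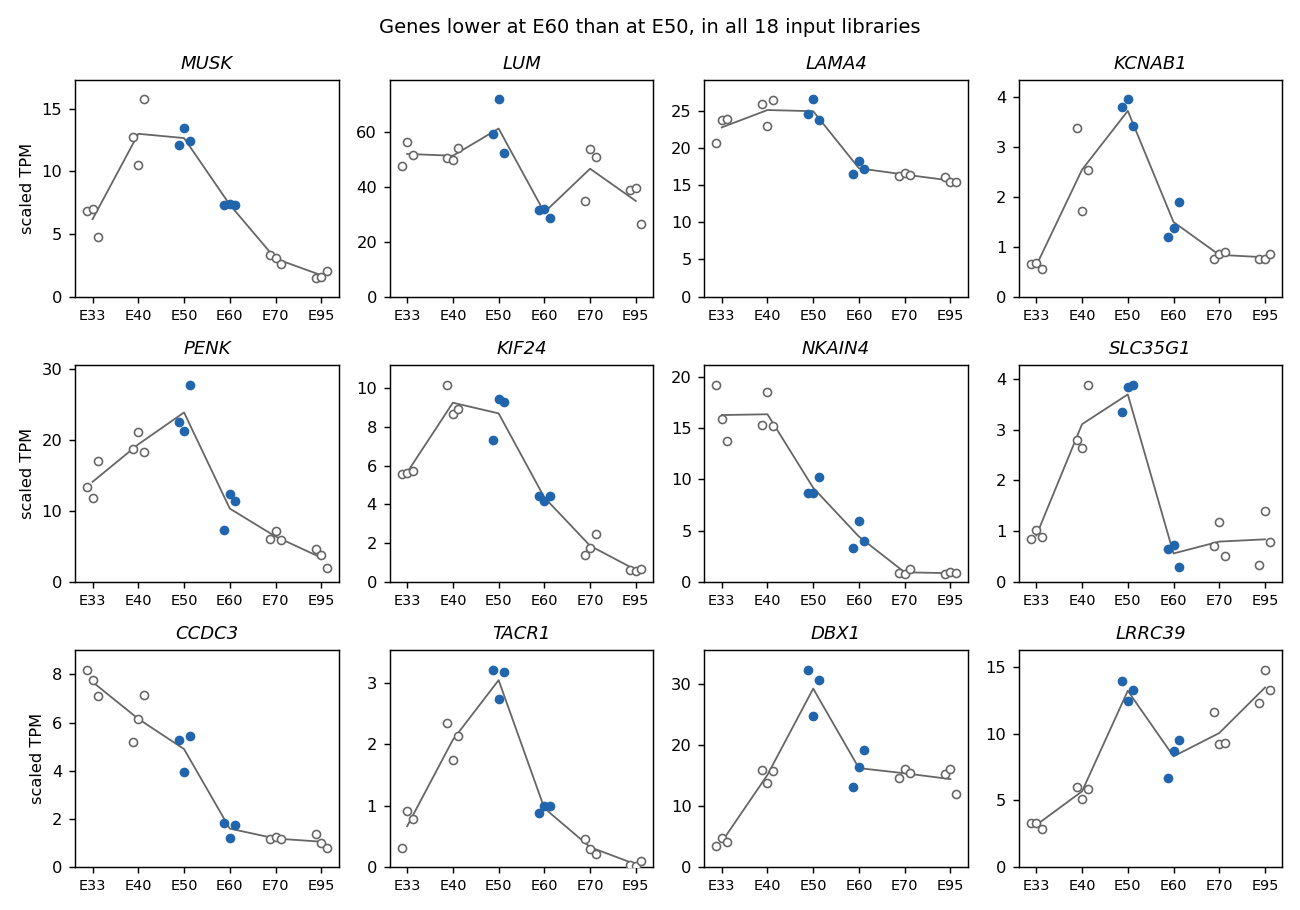
Scaled TPM (vertical axis, from 0) of 12 genes called lower at E60 in each of the 18 input libraries by stage, drawn with E50 and E60 filled and a line through the stage means. All E60 points lie below all E50 points in each panel; CCDC3 had its highest mean at E33, while SLC35G1, TACR1 and DBX1 were highest at E50 and LRRC39 rose again to E95.

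Genes of the cell cycle and DNA replication had the lowest median of the 16 lists, -0.16, with 0 of 29 called by limma and 5 at an unadjusted p under 0.05, all lower. Ranges were separate and lower at E60 for 9 of them, and higher for 0. Over all genes tested 7.33% had separate, lower ranges and 7.84% separate, higher ones. The kinetochore gene CENPF was at 15.8, 18.9 and 21.3 scaled TPM at E50 and 11.96, 13.2 and 13.5 at E60, and the topoisomerase TOP2A at 28.5, 35.5 and 33.3 and then at 22.6, 23.8 and 25.5 (limma adjusted p 0.0762 and 0.116). The median of the list stayed below that of all genes by 0.12 to 0.21 in all 19 alternatives. These reuse the same libraries and are not independent evidence. Of 22 writers, erasers and readers of m6A limma called 0, with 5 at an unadjusted p under 0.05, all lower, and 5 with separate, lower ranges, with a median of -0.02. The reader YTHDF2 was at 9.97, 10.9 and 9.60 and then at 8.27, 7.98 and 7.14. IGF2BP2, which binds growth-related mRNAs, was at 15.8, 17.7 and 13.9 and then at 11.98, 11.3 and 11.7 (limma adjusted p 0.136 and 0.182). Of 16 genes of myoblast adhesion and fusion limma called 0, with 2 at an unadjusted p under 0.05, both higher, and 5 had separate, higher ranges, among them the tetraspanin CD9, at 1.62 to 2.27 and 2.82 to 3.25, and dysferlin DYSF, a membrane repair protein, at 11.6 to 13.5 and 14.5 to 18.4 (limma adjusted p 0.0763 and 0.131). Of 14 fetal growth and heterochronic genes limma called 0, with 2 at an unadjusted p under 0.05, both lower, and a median of 0.02. The imprinted genes PEG10 and MEST had overlapping ranges of 1467 to 1935 and 1292 to 1766, and of 234 to 348 and 223 to 261. In the whole comparison 1572 of the 12967 genes had an unadjusted p under 0.05.

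**Figure D4:**
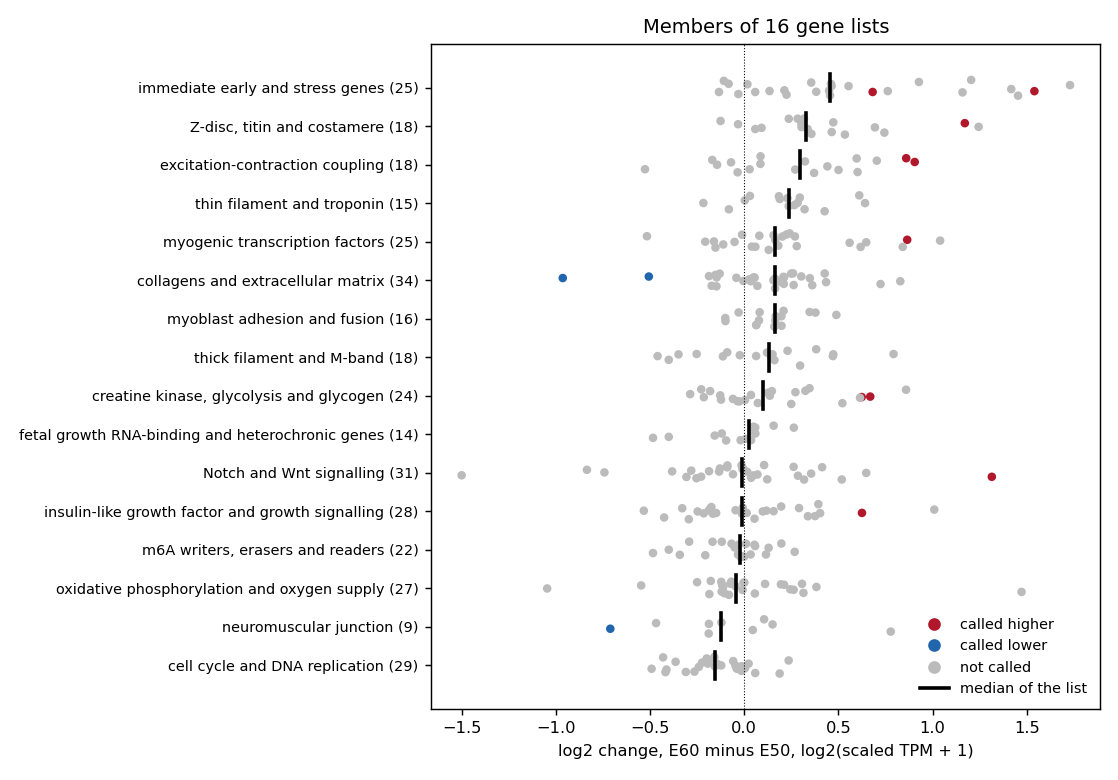
Log2 change from E50 to E60 (horizontal axis) of every tested member of 16 gene lists, with the number tested in brackets, calls in red (higher) or blue (lower), other members in grey and the median of each list as a black bar. Medians run from -0.16 for the cell cycle to 0.46 for immediate early and stress genes, and 13 of the list entries are called.

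Limma called 0 markers of other cell types. At an unadjusted p under 0.05 were 4 of 13 endothelial, 4 of 13 tendon and fibroblast and 2 of 8 erythroid markers, all higher. So were 2 of 12 macrophage and leukocyte markers and 1 of 10 smooth muscle and pericyte markers, also higher. Of 7 markers of Schwann cells and glia 2 were, in opposite directions, and the other 4 lists had 0. Over all genes tested 1572 of 12967 were under that p, and these small counts are to be read beside that share. Erythroid markers summed to 380 to 957 scaled TPM at E50 and 821 to 1747 at E60, endothelial markers to 87.4 to 141 and 128 to 175, smooth muscle and pericyte markers to 235 to 299 and 283 to 346, and macrophage and leukocyte markers to 50.8 to 64.7 and 64.0 to 79.1. Markers of Schwann cells and glia summed to 89.9 to 100 and 91.5 to 136, those of adipocytes to 23.4 to 28.0 and 18.2 to 42.5, and those of skin and other epithelia to 2.99 to 5.96 and 5.03 to 5.98. Of the epithelial markers only 1 of 7 matched averaged 1 TPM. Their part in the changes above was not tested.

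The same genes can be read at the stages on either side, E40 and E70, whose libraries have no part in the difference tested but do share the fit and its estimate of the spread. They therefore helped to choose the genes, and what follows is not independent of that choice. This comparison was chosen after the data were seen. Of the 73 genes that rose from E50 to E60, 59 were called higher at E70 than at E40, 0 were called lower and 14 were not called, with a median log2 change of 1.18. Over all genes tested 10.2% were called higher and 7.03% lower between these stages, with a median of 0.01. Of the 35 genes that fell, 26 were called lower, 1 higher and 8 were not called, with a median of -0.92. EEF1A2 averaged 50.1 scaled TPM at E60, 88.5 ± 9.06 at E70 and then 431 ± 148 at E95 (SD, n = 3 per stage), and ATP2A1 averaged 41.1, 108 ± 8.94 and 274 ± 26.2. In 46 of the 73 the highest of the 6 stage means was that of E95, and in 20 all 6 means stood in rising order. In 10 it was that of E60, among them ENC1, an actin-binding protein, which averaged 43.9 at E50, 87.5 at E60 and 36.6 at E95 and was named after its values were seen. In 21 of the 35 genes that fell the lowest mean was that of E95. E50 itself had the extreme mean for others: in 19 of the 73 its mean was the lowest of all 6 stages and in 16 of the 35 the highest, as for SLC35G1, DBX1, PENK, TACR1 and LUM. LUM averaged 51.9 scaled TPM at E33, 61.1 ± 9.80 at E50, 30.6 at E60 and 46.5 ± 10.2 at E70. Some of these extremes were small beside the spread: PFKM averaged 4.83 ± 0.240 at E40 and 4.33 ± 0.545 at E50 (SD, n = 3 each). Since the genes were chosen for a difference between E50 and E60, an extreme mean at E50 is partly set by that choice.

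The second question was how the m6A peaks of the stages differ. The authors deposited 1 peak list per stage, with 7058 peaks in 4151 genes at E50 and 7545 in 4278 genes at E60, so peak numbers and overlaps have no replicates and no test, and intervals below cover counting error only. Of the 12967 genes tested for expression, 3467 (26.7%) had a peak at both stages, 710 (5.48%) at E60 only, 582 (4.49%) at E50 only and 8208 (63.3%) at neither. Genes with peaks at both stages were expressed at a median of 10.7 scaled TPM at E50 and 10.9 at E60, those with a peak at E60 only at 7.47 and 7.67, those with a peak at E50 only at 5.88 and 5.79, and those with none at 4.12 and 4.08. The median log2 change was 0.02 for genes with a peak at E60 only and -0.01 for those with a peak at E50 only, against 0.00 for all genes tested. The classes depend on the fold enrichment over input at which a peak counts: with a fold of at least 5, which the E50 list reaches more often (median fold 4.88 against 4.06), there were 495 genes at E60 only, 990 at E50 only and 1437 at both.

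Most peaks lay at the same place at both stages. Of the E50 peaks 5558 (78.7%) overlapped a peak of E60 by at least 1 base, and of the E60 peaks 5612 (74.4%) overlapped one of E50. Shared peaks had a median fold of 5.14 at E50 and 4.15 at E60, and unshared ones 3.79 and 3.76. The place of the peaks differed between genes with a peak at E60 only and genes with a peak at E50 only. In the former 37.5% of the peaks placed in coding transcripts (Wilson 95% interval 34.0% to 41.1%, of 715) lay within 200 bases of the stop codon and 42.2% (38.7% to 45.9%) in the rest of the coding sequence. In the latter these shares were 25.8% (22.4% to 29.6%, of 569) and 60.8% (56.7% to 64.7%). Peaks of the 3' UTR made up 15.4% (12.9% to 18.2%) and 10.5% (8.28% to 13.3%). These peaks also differ in form, since 26.4% of the E50-only and 10.1% of the E60-only peaks span an exon junction. Of the shared peaks 26.3% at E50 and 24.1% at E60 did so. The part of this form in the shares was not tested.

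**Figure D5:**
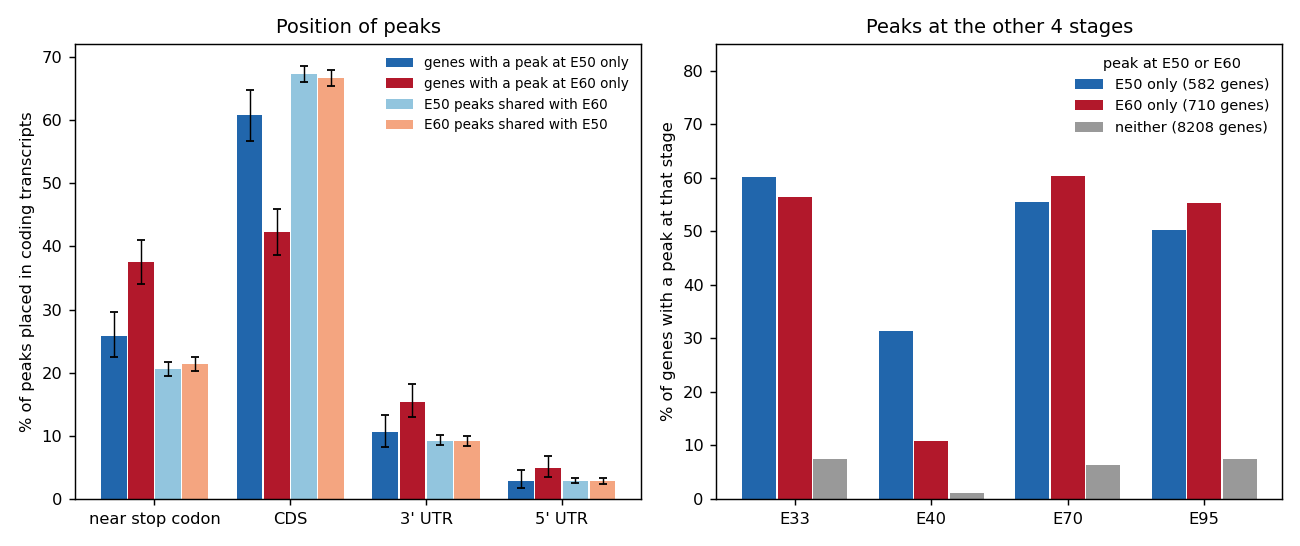
Left, the share of peaks (vertical axis, %, of those placed in coding transcripts) near the stop codon, in the coding sequence and in the UTRs, for genes with a peak at 1 of the stages only and for shared peaks, with Wilson 95% intervals that cover counting error only. Right, the share of genes with a peak at E33, E40, E70 or E95 (vertical axis, %), for genes with a peak at E50 only, E60 only or neither: 50.2% to 60.3% of the one-stage genes have a peak at E33, E70 or E95, against 6.41% to 7.46% of genes with none.

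A peak at only 1 of the stages was rarely unique to it. Of the 710 genes with a peak at E60 but not at E50, 56.5% had a peak at E33, 10.8% at E40, 60.3% at E70 and 55.2% at E95, and 107 had none in those 4 lists. Of the 582 genes with a peak at E50 but not at E60, 60.1%, 31.4%, 55.5% and 50.2% had one, and 88 had none. Genes with no peak at either stage had one in 1.08% to 7.46% of cases. The E40 list is the shortest, with 4928 peaks in 3047 genes, against 4598 to 4767 genes at E33, E70 and E95. The part of list length in the low shares at E40 was not tested. The median fold of the peaks of the tested genes was 4.17 for E60 only and 4.08 for E50 only.

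The sequences below are 29-base windows on the strand of the transcript, read 5' to 3' from the RefSeq genome Sscrofa11.1, around the motif nearest the middle of the peak, which is in capitals. The motif is GGACN, with A, C or T and not G as its last base, searched on the strand of the transcript only, and it contains the core in which m6A is written. It was found in 49.5% of 6406 windows of 101 bases centred on E50 peaks and in 50.4% of 6830 centred on E60 peaks, against 26.5% of windows of that length in the same transcripts outside all peaks. A match is thus a description and not a mapped site. The first set has the highest folds among genes with a peak at E60 only, ZFPM1 (fold 27.2), CUTC (25.6), ITPKA (24.5), MARCHF9 (22.8), SOCS3 (22.8), SHROOM1 (21.7) and BOK (20.1), and the eighth gene of the rule, KIAA0930 (19.8), had no such motif in its peak.
ZFPM1, near the stop codon, chr6:1091405-1091433, minus strand: cccctcgcactcGGACAagggcgtgcaga
CUTC, near the stop codon, chr14:110921165-110921193, plus strand: tctgagagacacGGACAtcacaggacaaa
ITPKA, coding sequence, chr1:129868774-129868802, minus strand: gaagctgcgaaaGGACAtgtacaagaaga
MARCHF9, near the stop codon, chr5:23049372-23049400, plus strand: agccgggccccaGGACCtcacggacgggc
SOCS3, 3' UTR, chr12:3645720-3645748, plus strand: ctcgcaaacaggGGACActgcgggagtgc
SHROOM1, coding sequence, chr2:135150525-135150553, minus strand: atagcccccctgGGACTgcaaatggtgac
BOK, 3' UTR, chr15:140183497-140183525, plus strand: cttgtgccaggaGGACTgaaggagaagag

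None of these 7 genes was called for expression, and ZFPM1, a cofactor of GATA factors, was at 3.88 ± 1.19 scaled TPM at E50 and 4.43 ± 0.317 at E60 (SD, n = 3 each). SOCS3, an inhibitor of cytokine signalling, was at 9.89 ± 4.01 and 9.29 ± 2.21, and ITPKA, a kinase of inositol trisphosphate, at 4.21 ± 1.93 and 3.25 ± 1.49. ITPKA had a peak at E60 and in none of the other 5 lists, while ZFPM1 and SHROOM1 also had one at E33 and E70. The whole E60 peak of SHROOM1, a regulator of cell shape, lies in the coding sequence (chr2:135150419-135150627, minus strand, fold 21.7) and holds 3 of these motifs, in capitals.
SHROOM1 peak: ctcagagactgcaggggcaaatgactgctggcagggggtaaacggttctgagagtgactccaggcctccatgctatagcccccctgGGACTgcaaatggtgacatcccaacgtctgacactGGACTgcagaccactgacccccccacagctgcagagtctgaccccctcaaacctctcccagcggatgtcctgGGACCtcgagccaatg

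Of genes with high folds and a peak at E50 only, 7 are described here. The motif was in the peaks of FBXO10 (fold 23.3), MASTL (20.6) and ATXN7L2 (18.2), all in the coding sequence, and in none of MED6 (20.6), ADGRG1 (20), EXO5 (19.8) and S1PR3 (19.5).
FBXO10, chr1:238258150-238258178, minus strand: gctcccagcagaGGACTctgattcagtca
MASTL, chr10:48866926-48866954, plus strand: agtcacgtcagtGGACTgtggattccagt
ATXN7L2, chr4:110638656-110638684, minus strand: agcagggcccctGGACTgccggggccccc

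FBXO10, MED6 and MASTL had a peak at E50 and in none of the other 5 lists. None of these 7 was called for expression. FBXO10, part of a ubiquitin ligase, was at 4.66 ± 0.594 scaled TPM at E50 and 5.63 ± 0.417 at E60, and MASTL, a kinase of mitotic entry, at 1.64 ± 0.680 and 1.52 ± 0.291 (SD, n = 3 each). The genes with the highest folds at E60 among those with peaks at both stages were TENT5C (39.4 at E60, 7.77 at E50), RBM15 (38.5 and 5.64), SLN (36.6 and 3.04), LCOR (36.3 and 10.4) and MTCL1 (29.9 and 11.4), and 0 of these 5 were called. TENT5C, a poly(A) polymerase, was at 1.95 ± 0.412 and 4.03 ± 0.468 (limma adjusted p 0.0656), and RBM15, which guides the m6A writer complex, at 10.97 ± 1.21 and 8.77 ± 0.878 (limma adjusted p 0.366).

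Peaks and expression met in few genes. Of the 73 genes that rose, 25 had a peak at both stages, 4 at E60 only, 0 at E50 only and 44 at neither. Of the 35 that fell, 16 had a peak at both, 3 at E50 only, 0 at E60 only and 16 at neither. As a share, 0.563% of the genes with a peak at E60 only were called higher, the same as the 0.563% of all genes tested. Of the genes with a peak at E50 only 0.515% were called lower, which is 3 genes, against 0.270% of all genes tested. The 4 that rose with a peak at E60 only were TFEB (fold 18.4), ATP2B3 (10.4), PTP4A3 (2.81) and NRAP (2.07). The 3 that fell with a peak at E50 only were TACR1 (fold 15.3), KCTD16 (6.44) and LRRC39 (4.55). With 1 list per stage, a change of the peak itself was not tested in these genes. The folds of PTP4A3 and NRAP lie under the E60 list median of 4.06. The motif windows of those genes that hold one follow.
TFEB, near the stop codon, chr7:36870980-36871008, minus strand: caagaaggatctGGACCtcatgcttctgg
NRAP, coding sequence, chr14:123947193-123947221, minus strand: cacaatgaccctGGACCtgcctgagttta
PTP4A3, 5' UTR, chr4:2351481-2351509, minus strand: tgcccgcctccaGGACTcgccgtgccccg
TACR1, 3' UTR, chr3:68021002-68021030, plus strand: agccagaccatgGGACCtaagggatgtga

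TFEB, the master regulator of lysosomal genes (ENSSSCG00000001621, RefSeq chr7:36870240-36920887, minus strand), was at 2.11, 2.20 and 1.66 scaled TPM at E50 and at 2.94, 3.60 and 3.78 at E60 (log2 change 0.57, SE 0.11, limma adjusted p 0.0229). It had a peak again at E95 but not at E70, where its mean was 5.49 ± 0.377, above that of E60. PTP4A3, a phosphatase (ENSSSCG00000036569), was at 14.5, 8.86 and 12.1 and then at 21.97, 24.7 and 23.5 (log2 change 0.95, SE 0.17, limma adjusted p 0.0135), with peaks in no list up to E50, 1 at E60 and 2 each at E70 and E95. ATP2B3, a calcium pump of the cell membrane (ENSSSCG00000012769), was at 4.61, 3.84 and 5.05 and then at 6.91, 7.46 and 7.29 (log2 change 0.58, SE 0.12, limma adjusted p 0.0418). KCTD16 was at 3.12, 3.23 and 2.45 and then at 1.64, 1.65 and 1.08 (log2 change -0.68, SE 0.13, limma adjusted p 0.0195), and LRRC39, a protein of the M-band, at 13.9, 12.4 and 13.3 and then at 6.68, 8.71 and 9.50 (log2 change -0.62, SE 0.12, limma adjusted p 0.0251). The calls of TFEB, PTP4A3 and KCTD16 were each lost in 3 of the 6 fits without 1 library (limma adjusted p at most 0.0980, 0.0661 and 0.0814), that of LRRC39 in 5 (at most 0.0786) and that of ATP2B3 in all 6 (at most 0.146). With values as deposited the change of LRRC39 was 0.11.

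In the long muscle genes CMYA5 and NRAP the number of peaks went up with the level of the RNA, but other called genes did not all follow this. CMYA5 had 0, 1, 5, 9, 14 and 18 peaks from E33 to E95, while its mean level went from 0.0427 to 0.339, 2.00, 6.66, 19.9 and 51.9 scaled TPM. NRAP had none up to E50 and then 1, 2 and 7, at mean levels of 7.59 at E50 and 18.4, 30.1 and 47.5 after it. SCN4A had 0, 2, 1, 2, 3 and 3 at levels of 1.45, 2.76, 7.28, 13.9, 30.8 and 55.2, with fewer peaks at E50 than at E40. ATP2A1 kept 1 peak from E33 to E60, at levels of 21.5 at E50 and 41.1 at E60. It then had 3 at E70 and 4 at E95. GYS1 had 1 peak at every stage, at levels of 22.6 at E33 and 60.0 at E95. MAP1A had 6 peaks at E33, at a level of 71.6, and 10 at E50, at 30.1. These genes were chosen for their change between E50 and E60, and the part of the RNA level in whether a peak was called was not tested. Among called genes with peaks at both stages the following windows come from the peak with the highest fold at E60, and are shown for 6 genes whose levels are given above.
SCN4A, coding sequence, chr12:15045554-15045582, plus strand: gatccactgcctGGACAtcctcttcgccc
ATP2A1, 5' UTR, chr3:18548074-18548102, plus strand: ggacaggcaggtGGACAcactgaggaagg
GYS1, near the stop codon, chr6:54235854-54235882, minus strand: gcgcggctccgtGGACAcagggccatcca
MUSK, near the stop codon, chr1:251751307-251751335, plus strand: gccatgcgaagaGGACCctccagcctcct
PENK, near the stop codon, chr4:75529869-75529897, plus strand: ggagtggtggatGGACTatcagaaaaggt
LUM, coding sequence, chr5:91751953-91751981, plus strand: ggctcctttgatGGACTggtcaacctgac

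The folds of the called genes were set beside their direction of change. Of the 22 genes with a symbol that rose and had peaks at both stages, 8 had the higher fold at E60 and 14 at E50, with medians of 5.32 at E60 and 6.70 at E50. Of the 15 that fell, 3 had the higher fold at E60 and 12 at E50, with medians of 4.49 and 6.41. In both sets the folds were lower at E60, as they were over the whole lists (median 4.06 against 4.88). SCN4A had its highest fold at 15.3 at E50 and 23.7 at E60, whereas EGR1 had it at 19.6 and 7.59, and PENK at 5.49 and 5.52. With 1 list per stage these differences have no error.

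Members of the gene lists moved in and out of the peak lists in both directions. Of the 22 m6A regulators tested 12 had a peak at both stages, 3 at E50 only, 1 at E60 only (YTHDF1, fold 7.34) and 6 at neither. Those at E50 only were IGF2BP1 (fold 2.52), IGF2BP2 (2.26) and HNRNPA2B1 (1.8), all under the E50 list median of 4.88. Over all genes tested 4.49% had a peak at E50 only and 5.48% at E60 only. Of the 25 myogenic factors 9 had a peak at both, TCF12 (fold 2.48) at E50 only, and MYOD1 (3.51), MEF2A (3.71), SIX4 (14) and EYA4 (4.24) at E60 only. MYOD1 was at 107 ± 11.7 scaled TPM at E50 and 126 ± 18.8 at E60 (SD, n = 3 each), and SIX4, a homeobox factor upstream of it, at 13.6 ± 0.817 and 15.8 ± 3.57, and neither was called. MSTN, the brake on muscle growth, had a peak at E50 only (fold 7.26), at 18.9 ± 1.27 and 13.9 ± 1.28 scaled TPM, and so had PPARGC1A, a coactivator for mitochondrial genes (16.2). The Notch target HES1 (8.53) and the cyclin CCND2 (12.4, at 100.2 ± 2.47 and 99.2 ± 1.77) had one at E60 only. Over all genes tested 36.7% had a peak at E50 or E60. The share was 14.8% of 27 genes of oxidative phosphorylation and 29.2% of 24 of creatine kinase, glycolysis and glycogen, the last near the share of all genes. In every other list it was above that of all genes. It was 85.7% of 14 fetal growth and heterochronic genes, 83.3% of 18 thick filament genes and 82.4% of 34 matrix genes. Genes with peaks at both stages also had higher levels (median 10.7 scaled TPM at E50 against 4.12 for genes with none). The part of the level in these shares was not tested.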

How the data were processed

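The 3 input libraries each of E50 and E60 were analysed, with the other 12 muscle input libraries in the fit. Per the file headers, the authors deposited TPM per Ensembl gene and, per peak, a fold enrichment (a linear ratio over input). The submitters' processing notes name Trimmomatic, HISAT2 and Sscrofa11.1; the quantification program, the peak caller and any pooling before peak calling are not given in the sources used here. TPM were scaled by median ratios over the 14215 genes above 0 in all 18 libraries. For the 12967 genes that average 1 TPM or more over E50 and E60 as deposited, log2(scaled TPM + 1) was fitted in limma 3.58.1 (R 4.3.3) with 1 mean per stage (12 residual degrees of freedom, trend), tested two-sided and adjusted with Benjamini-Hochberg over all of them. The scripts were tested on simulated data. Peaks were compared by overlap of at least 1 base over their exon blocks and placed by their midpoint in 19549 RefSeq coding genes of Sscrofa11.1 (Python 3.11.15, samtools 1.23.1); 0 peaks ran past a chromosome end, and 89.8% and 86.7% of peak junctions at E50 and E60 fell at RefSeq introns.

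Same-numbered libraries of E50 and E60 deviated from their stage means with correlations of 0.02, -0.09 and 0.05, and the other pairs with -0.11 to 0.10. The numbers were therefore not used to pair them in the main fit. With 3 libraries per stage the deviations constrain each other, so this check cannot decide whether libraries share a litter or batch. Gene symbols came from a table given with the data. Genes were named by a rule: the 15 largest called rises and falls with a symbol and separate ranges, called members of the 16 lists with 2 to 4 further members each, the 8 genes of highest fold for each stage-only class and 5 for both, 1 of which is not reported here, called genes with a peak at 1 stage only, and genes holding over 10% of a library. The members, the lists and the 11 sets of cell type markers were chosen with earlier results of these data known. Alternatives covered scaling, pseudocount, filter, the libraries in the fit, the replicate block, weights, libraries left out, and for peaks the fold, filter and overlap.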

Additional observations from a re-analysis of the deposited data

How the results depend on the processing

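Of 108 genes called (73 higher, 35 lower), 11 were called with TPM as deposited (11 higher, 0 lower), 56 with a mean of at least 5 TPM (39 and 17), 11 with only the 6 libraries of E50 and E60 (9 and 2), 60 with the 12 libraries of E33 to E60 (39 and 21) and 4 with the replicate block on those 6 libraries (2 and 2). With the replicate block over all 18 libraries it was 85 (60 and 25). Rescaling TPM after dropping the 2 most abundant genes gave 108 calls with 97 higher and 11 lower, 72 of them among the 108, and quantile normalization 154 with 95 higher and 59 lower. Without both E40 replicate 2 and E50 replicate 3 it was 92 (61 and 31). Leaving out 1 of the 6 libraries gave 52 to 98 calls, 37 to 68 higher and 15 to 30 lower. All 108 kept their direction in every alternative that tested them except TPM as deposited, where 92 did. There MUSK was at 0.0103, LAMA4 at 0.27 and LRRC39 at 0.11. The alternatives reuse the libraries by which the genes were chosen, so a kept direction is largely set by that choice. Of 44 called genes named by the rule, 16 stayed called without any single library. With a peak fold of at least 5 there were 990 genes with a peak at E50 only and 1437 at both, with at least the list median 1893 at both, and with a mean of at least 5 TPM 353 at E50 only. The depth behind the values is unknown, and the cause of these differences was not tested.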

Other observations

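The following genes lie outside the naming rule and were chosen after their values were seen. NR4A3, a nuclear receptor related to NR4A1, was at 0.935, 0.905 and 0.692 scaled TPM at E50 and at 2.73, 2.92 and 2.28 at E60, a difference of 0.98 in log2 (SE 0.19, limma adjusted p 0.0232), and averaged 26.5 at E95. EGF, the epidermal growth factor, was at 0.105 to 0.440 at E50 and 1.25 to 1.62 at E60 (log2 change 0.93, SE 0.14, limma adjusted p 0.00691) and averaged 8.78 at E70. The integrin ITGA6, a laminin receptor, was at 9.72, 10.3 and 9.07 and then at 15.2, 15.3 and 19.5 (log2 change 0.72, SE 0.11, limma adjusted p 0.00759), whereas the basement membrane protein NID2 was at 25.6, 29.6 and 28.3 and then at 16.9, 18.9 and 19.5 (log2 change -0.57, SE 0.11, limma adjusted p 0.0278). CARNS1, which makes carnosine, was at 20.4, 14.3 and 13.4 and then at 28.5, 37.1 and 35.5 (log2 change 1.04, SE 0.15, limma adjusted p 0.00619), and NMRK2, a muscle kinase of the NAD pathway, at 9.34, 6.77 and 6.46 and then at 13.3, 20.8 and 15.2 (log2 change 1.03, SE 0.19, limma adjusted p 0.0194). GLI3, a transcription factor of hedgehog signalling, was at 12.3, 13.1 and 12.4 and then at 8.78, 8.69 and 10.03 (log2 change -0.42, SE 0.07, limma adjusted p 0.0138), and its stage means fell without a break from 22.9 at E33 to 4.37 at E95.

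Of the 90 called genes with a RefSeq position, 6 pairs lie within 200000 bases of each other. NUDT2 with KIF24 and LGI1 with SLC35G1 were both lower, NMRK2 with ATCAY and PLEKHA4 with GYS1 both higher, and NKAIN4 with EEF1A2 and DBX1 with NAV2 changed in opposite directions.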
